A study of Mus musculus with 6 samples.

Results

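The genes described here are 48 that encode the kinetochore, the protein assembly on each centromere that captures spindle microtubules, and the spindle assembly checkpoint, which holds a cell before anaphase until every kinetochore is attached. They were taken as a list of symbols and sorted by role, and 48 of 48 matched a row of the count table, which holds 32493 genes. RNA-seq was run on neural stem cells (NSCs) from E14.5 mouse embryos of a C57BL/6J background, dissected from the lateral ventricles and grown in culture for several generations. The cko embryos were homozygous for a floxed miR-151 allele (fl/fl) and carried Emx1-IRES-Cre, which drives Cre recombinase in the dorsal telencephalon. The ctrl embryos were fl/fl without Cre and are named wt in the sample labels, so both genotypes carry the floxed allele. No other treatment separated the groups. The comparison asks how the transcriptome of NSCs differs once miR-151 is deleted. Each group has 3 deposited columns, but the column of ctrl replicate 2 equalled the mean of ctrl libraries 1 and 3, rounded up, in 32493 of 32493 genes, the 48 genes included. It was counted in no n, which left 2 ctrl libraries (1 and 3) and 3 cko libraries (1, 2 and 3), in which order values are given throughout. Values are in normalized CPM, the count of a gene relative to the size of its library after scaling by the TMM factors of edgeR. The study describes the cko and ctrl embryos as littermates and gives a minimum number of embryos for its experiments in general, but the sources do not tie the single libraries to embryos, litters or cultures, so the p-values measure the spread between these libraries, which may be technical.

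As background, centromeres are marked by nucleosomes that hold the histone variant CENP-A, and a constitutive network of inner proteins sits on them through the whole cell cycle. In mitosis this network recruits the outer kinetochore, built from the KNL1, MIS12 and NDC80 complexes, of which NDC80 grips the microtubule. Kinetochores without a microtubule gather the checkpoint proteins, which keep the anaphase-promoting complex inactive. The chromosomal passenger complex, with the kinase Aurora B, releases wrong attachments. In dividing cells most of these genes are transcribed mainly in the G2 and M phases, many under the MuvB complexes that bind a short promoter element, the cell cycle genes homology region (CHR), often next to CCAAT boxes bound by NF-Y. In the embryonic cortex, radial glia divide at the ventricular surface and depend on this machinery.

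The libraries held 17883796 to 23335736 counts, with TMM factors from 0.990 to 1.01, and the floor of 3 counts lay at 0.129 to 0.168 normalized CPM. This floor covers counting error only. The 48 genes lay well above it, the lowest of them with 28 counts in a library, and all 48 passed the filter on low counts. The labelled cell type was checked against marker genes. The NSC markers Sox2 (582 and 556 and 619, 625 and 606 normalized CPM) and Nes (470.2 and 537 and 873, 1066 and 1033) were abundant. Of the microglial list, Cx3cr1 and Tmem119 had no count in any library, and the whole list summed to at most 0.480 normalized CPM. The oligodendrocyte lineage genes Olig1 and Olig2 were also abundant in all 5 libraries (538 and 649 and 740.5, 818 and 759.9 normalized CPM for Olig2). The NSC marker Pax6 was lower than Sox2, at 51.9 and 46.2 and 44.9, 47.2 and 51.8 normalized CPM. The neuron gene Map2 was abundant as well (1031 and 958 and 1083, 1089 and 1123). The astrocyte gene Gfap was uneven between the ctrl libraries (1007 and 177 and 297, 86.6 and 121). Cldn5 was not analysed here.

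The kinetochore and checkpoint genes were higher in cko NSCs almost without exception. Of the 48 genes, 43 rose at a Benjamini-Hochberg adjusted p under 0.05 over all 16710 tested genes (edgeR quasi-likelihood test), whereas 7.86% of all tested genes were called higher. None was called lower by DESeq2 or by edgeR, which called 8.57% of all tested genes lower at the adjusted threshold. None was lower in edgeR at an unadjusted p under 0.05 either, against 2783 of the 16710 tested genes. At the threshold of the study, a log2 fold change over 0.9 with an unadjusted p under 0.01, 30 of the 48 were higher, against 2.39% of tested genes. The median log2 fold change was 1.00, with 48 of 48 above zero and a range from 0.18 to 1.37, and the median of all tested genes was -0.0026. In 46 of the 48 genes every cko library lay above both ctrl libraries, which held for 25.4% of all tested genes. The genes together took 0.171% and 0.178% of the counts in the ctrl libraries and 0.261%, 0.324% and 0.318% in the cko libraries. The count of called genes changed with the library left out. Without cko library 1 it was again 43, with 2 genes lost and 2 gained, and it was 42 without ctrl library 1 and 42 without ctrl library 3. Without cko library 2 it fell to 23 of 48, and without cko library 3 also to 23, with 20 genes losing the call in both cases, while 48 of 48 stayed above zero and all tested genes called higher fell to 1.95% and 2.06%. These 20 genes had adjusted p-values of up to 0.157 in edgeR in those fits. A set of 23 genes was called higher in the reported comparison and in each alternative that was run.

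**Figure D1:**
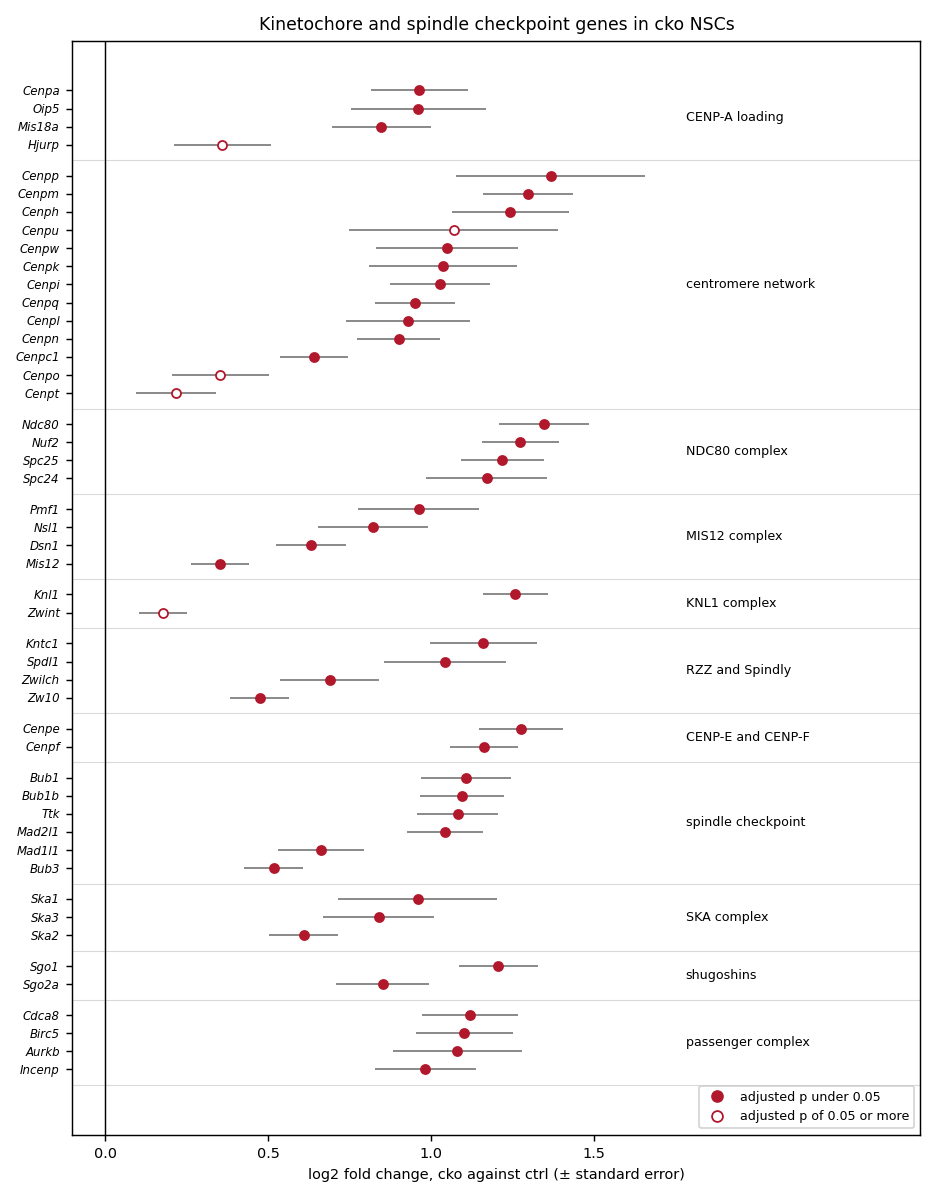
Log2 fold change of each of the 48 genes, cko against ctrl, with its standard error (horizontal bars), grouped by role; filled points have an adjusted p under 0.05 in edgeR and open points do not. All 48 points lie to the right of zero, 5 of them open: Hjurp, Cenpu, Cenpo, Cenpt and Zwint.

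The cko libraries were not equal among themselves. Relative to the mean of the ctrl libraries, the median gene of the list stood 0.75 higher on the log2 CPM scale in cko library 1, 1.14 in cko library 2 and 1.10 in cko library 3, and the ctrl libraries stood at -0.049 and 0.049. Cko library 1 was the lowest cko library in 45 of 48 genes, and cko library 2 the highest in 33. Between the ctrl libraries, library 3 was the higher one in 32 genes. General proliferation genes had the same order of libraries. Mki67, the gene of the proliferation marker KI67, stood at 253 and 269 normalized CPM in ctrl and 538, 704 and 682 in cko NSCs, and its log2 fold change was 1.30 (SE 0.13, adjusted p = 0.00192 in edgeR). Top2a, a topoisomerase of G2 and M phase, was at 253 and 282 normalized CPM in ctrl and 515, 683 and 654 in cko NSCs. Pcna, the sliding clamp of DNA replication, rose with a log2 fold change of 0.90. Both genotypes were kept apart by all 3 genes. Of the 9 NSC markers, Nes and Prom1 rose and Slc1a3 fell. Of the 6 astrocyte markers, 3 fell (Aldoc, S100b and Gjb6) and none rose, and their summed level ran from 1050.4 to 1980 normalized CPM in ctrl and from 507 to 948 in cko libraries, cko library 1 being the highest of the latter. Among the oligodendrocyte lineage markers reported here, Sox10 and Mbp fell, and Olig1 and Olig2 rose. Of the 6 tested neuron markers, Elavl4 (log2 fold change 1.30, adjusted p = 0.000668 in edgeR) and Syt1 (1.57, adjusted p = 0.00257) rose and Dcx (-1.51, adjusted p = 0.00486) fell, and the summed level of the list ran from 1126 to 1254 normalized CPM in ctrl and from 1264 to 1297 in cko libraries. The part of a changed mix of cells in the results below was not tested. In bulk RNA, more dividing cells and more of these transcripts per cell cannot be told apart.

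**Figure D2:**
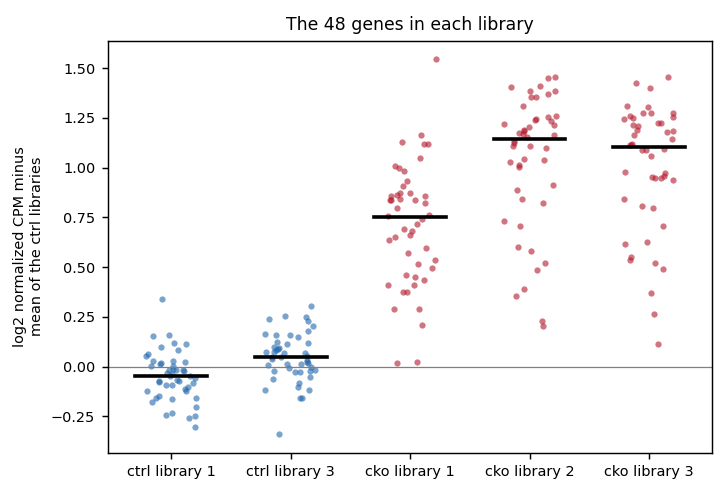
Level of the 48 genes in each library (1 point per gene, log2 normalized CPM minus the mean of the 2 ctrl libraries, bars at the median). The ctrl medians sit at -0.049 and 0.049, and the cko medians at 0.75, 1.14 and 1.10.

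Because these genes moved together, their promoters were searched for the letters of the elements named above. RefSeq promoter sequences on GRCm38.p6, from 250 bases before to 50 bases after each annotated start, were found for 42 of the 48 genes (47 promoters). Zwilch, Aurkb, Incenp, Ska1, Nsl1 and Spc24 had no entry. The CHR was searched as TTTGAA and TTCGAA and the NF-Y box as CCAAT, on both strands, where TTCGAA reads alike on both. TTTGAA or TTCGAA was present in 24 of the 47 promoters (51.1%), against 13.6% of the 14465 promoters of tested genes. CCAAT was present in 70.2% against 37.6%, and both kinds together in 40.4% against 5.70%. Letters of the CHR in the direction of the gene and within the first 50 transcribed bases occurred in 9 of the 47 promoters (19.2%), against 1.04% of the promoters of tested genes. The median log2 fold change of genes with CHR letters was 1.05 over 23 members and 0.95 over the 19 members with a promoter but without them, and 22 and 15 of these were called higher. Over all tested genes with a promoter, 12.1% of those with the letters and 8.04% of those without were called higher, with medians of 0.050 and -0.0067. A match is a description of letters and not of a bound site. The 6 promoters with CHR letters in the direction of the gene wholly within the first 30 transcribed bases are printed below, followed by those of the members with the smallest changes, Zwint and Cenpt, which have none in the whole 300 bases. Each line runs 5′ to 3′ along the gene from 90 bases before to 30 bases after the start, and capitals mark the CHR letters TTTGAA or those of the form TTCGAA, and also CCAAT boxes in either direction.
Cenpa (chr5:30666796-30666915, plus strand): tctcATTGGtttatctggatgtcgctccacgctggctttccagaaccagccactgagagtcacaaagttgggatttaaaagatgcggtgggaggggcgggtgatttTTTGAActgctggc
Hjurp (chr1:88277550-88277669, minus strand): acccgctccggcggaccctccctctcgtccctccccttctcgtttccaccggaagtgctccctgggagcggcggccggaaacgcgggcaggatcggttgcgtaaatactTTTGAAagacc
Bub1 (chr2:127831830-127831949, minus strand): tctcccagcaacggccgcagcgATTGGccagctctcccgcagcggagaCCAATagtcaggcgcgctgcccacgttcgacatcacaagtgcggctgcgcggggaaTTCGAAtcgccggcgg
Cenpf (chr1:189688057-189688176, minus strand): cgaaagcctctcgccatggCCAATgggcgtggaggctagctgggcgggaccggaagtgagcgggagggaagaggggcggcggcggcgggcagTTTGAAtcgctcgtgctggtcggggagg
Spc25 (chr2:69206184-69206303, minus strand): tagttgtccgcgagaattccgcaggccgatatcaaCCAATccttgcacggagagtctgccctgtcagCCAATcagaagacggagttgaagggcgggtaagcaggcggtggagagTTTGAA
Cdca8 (chr4:124936888-124937007, minus strand): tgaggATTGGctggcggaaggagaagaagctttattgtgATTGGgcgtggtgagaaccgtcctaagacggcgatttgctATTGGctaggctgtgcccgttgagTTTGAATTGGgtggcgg
Zwint (chr10:72654756-72654875, plus strand): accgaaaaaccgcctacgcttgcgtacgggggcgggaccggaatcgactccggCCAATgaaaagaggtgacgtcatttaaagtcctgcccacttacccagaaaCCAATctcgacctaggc
Cenpt (chr8:105851979-105852098, minus strand): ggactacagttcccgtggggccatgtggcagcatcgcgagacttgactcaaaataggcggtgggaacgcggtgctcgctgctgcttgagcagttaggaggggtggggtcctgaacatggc
In Cdca8, TTTGAA shares its last base with a reverse CCAAT. Hjurp has the letters and was not called, and Zwint has 2 CCAAT boxes in the window and was not called either. Lack of the letters was not confined to small changes. Cenpp, Cenpe, Nuf2 and Cenph, with log2 fold changes of 1.37, 1.28, 1.27 and 1.24, have none in their 300 bases. Ndc80, Cenpm and Knl1, at 1.35, 1.30 and 1.26, have them.

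Among the genes of CENP-A and its loading, 3 of 4 rose. Gene positions are those of GENCODE M21 on GRCm38. Cenpa (ENSMUSG00000029177, chromosome 5, 30666777 to 30674830, plus strand) encodes the histone variant that marks the centromere. It stood at 63.96 and 67.3 normalized CPM in ctrl and 102, 142 and 139.8 in cko NSCs, from 65.6 ± 2.33 (SD, n = 2) to 128 ± 22.4 (SD, n = 3), which is a change of 0.96 ± 0.15 (SE) on the log2 scale with an edgeR adjusted p of 0.00700. Every cko library was above both ctrl libraries. Hjurp (ENSMUSG00000044783, chromosome 1, 88262471 to 88277633, minus strand) encodes the chaperone that carries CENP-A to the centromere and was one of the most abundant members. Its 261 and 281 normalized CPM in ctrl and 275, 388 and 379.7 in cko NSCs overlapped, since cko library 1 fell between the ctrl libraries, and its log2 fold change of 0.36 (SE 0.15) did not pass (adjusted p = 0.144 in edgeR). Leaving out 1 library moved it from 0.26 to 0.49, and it passed without cko library 1 (adjusted p = 0.0237) and without the filter on low counts (adjusted p = 0.00223). The ratio of Cenpa to Hjurp was 0.245 and 0.239 in the ctrl libraries and 0.371, 0.365 and 0.368 in the cko libraries, closer within each genotype than either gene alone. Mis18a and Oip5 encode subunits of the complex that licenses CENP-A deposition. Mis18a had 13.6 and 10.9 normalized CPM in ctrl and 19.7, 24.5 and 21.9 in cko NSCs (log2 fold change 0.85, adjusted p = 0.0120 in edgeR). Oip5 had 5.06 and 7.19 normalized CPM in ctrl and 10.2, 12.5 and 12.9 in cko NSCs (log2 fold change 0.96, adjusted p = 0.0223). The groups did not overlap in either gene, and both calls were lost without cko library 2 or cko library 3. Of the exonic bases of Oip5, 9.67% are shared with Nusap1 on the opposite strand, so its reads are uncertain.

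The constitutive centromere network had 13 members, of which 10 rose, and its median log2 fold change was 1.03. Cenpp, one of the subunits of the CENP-O group, had the largest change of all 48 genes on few reads, with 2.44 and 1.49 normalized CPM in ctrl and 5.76, 4.24 and 5.42 in cko NSCs (log2 fold change 1.37 ± 0.29, SE, with an edgeR adjusted p of 0.0210). It was not past the threshold when any 1 cko library was left out (adjusted p of up to 0.0926), and 12.3% of its exonic bases are shared with Ippk on the opposite strand. Cenpm, which joins the CENP-H, CENP-I and CENP-K group, had 10.8 and 10.1 normalized CPM in ctrl and 22.97, 28.6 and 25.4 in cko NSCs (log2 fold change 1.30, adjusted p = 0.00226). Cenph had 6.81 and 7.14 normalized CPM in ctrl and 13.4, 18.6 and 17.4 in cko NSCs (log2 fold change 1.24, adjusted p = 0.00572 in edgeR). In Cenpm and Cenph the lowest cko library was above the highest ctrl library. Cenpi and Cenpk, partners of these genes, had log2 fold changes of 1.03 and 1.04. Cenpl and Cenpn, whose products form a pair that reads the CENP-A nucleosome, had 0.93 and 0.90. Cenpl was at 12.1 and 10.2 normalized CPM in ctrl and 16.9, 25.2 and 21.6 in cko NSCs. Cenpk was at 4.67 and 6.56 normalized CPM in ctrl and 9.17, 12.7 and 12.5 in cko NSCs. Both kept their genotypes apart, and the calls of Cenpk, Cenpl and Cenpw were lost without cko library 2 or cko library 3. Cenpw, the histone-fold partner of CENP-T, was at 3.32 and 4.26 normalized CPM in ctrl and 6.59, 8.69 and 8.13 in cko NSCs, a log2 fold change of 1.05 (edgeR adjusted p of 0.0190). Cenpq rose by 0.95 on the log2 scale, and Cenpc1, whose protein links CENP-A nucleosomes to the MIS12 complex, rose by 0.64.

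The other 3 members of this network were not called. Cenpt, whose protein also recruits NDC80 complexes, had 44.6 and 38.8 normalized CPM in ctrl and 42.1, 53.3 and 50.04 in cko NSCs, so that cko library 1 lay between the ctrl libraries (log2 fold change 0.22 ± 0.12, SE, with an edgeR adjusted p of 0.260). Cenpo had 10.03 and 9.97 normalized CPM in ctrl and 12.2, 11.7 and 14.4 in cko NSCs (log2 fold change 0.35, adjusted p = 0.147 in edgeR). Its groups did not overlap, but 19.0% of its exonic bases are shared with Adcy3 on the opposite strand, so its reads are uncertain. Cenpu had 3.40 and 2.72 normalized CPM in ctrl and 4.08, 8.01 and 7.16 in cko NSCs. Its log2 fold change was 1.07 with a standard error of 0.32 (adjusted p = 0.0608 in edgeR). It was past the threshold with DESeq2 (adjusted p = 0.0171) and without cko library 1 (adjusted p = 0.0249 in edgeR). It also passed without the filter on low counts (adjusted p = 0.000477 in edgeR), with the limit of that fit given for Hjurp. Of its exonic bases 26.7% are shared with Primpol on the opposite strand. The ratio of Cenph to Cenpt, both inner kinetochore genes, was 0.153 and 0.184 in the ctrl libraries and 0.319, 0.349 and 0.347 in the cko libraries.

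All 4 subunits of the NDC80 complex, the microtubule grip of the outer kinetochore, rose, and their median log2 fold change of 1.25 was the highest of the 11 role groups. Ndc80 (ENSMUSG00000024056, chromosome 17, 71496100 to 71526857, minus strand) was at 14.7 and 16.8 normalized CPM in ctrl and 34.3, 43.4 and 42.4 in cko NSCs, from 15.8 ± 1.44 (SD, n = 2) to 40.00 ± 5.00 (SD, n = 3) (log2 fold change 1.35 ± 0.14, SE, with an edgeR adjusted p of 0.00207). Spc24 had the smallest change of the complex, with 11.4 and 14.02 normalized CPM in ctrl and 22.97, 33.7 and 28.8 in cko NSCs (log2 fold change 1.17, adjusted p = 0.00791). Nuf2 and Spc25 lay between them at 1.27 and 1.22. In all 4 genes the cko libraries lay above the ctrl libraries. Their calls held in each alternative that was run. The Spc25 promoter printed above has both CCAAT boxes and the CHR letters.

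The MIS12 complex, which joins the inner network to NDC80 and KNL1, rose less evenly. All 4 genes were called, with a median log2 fold change of 0.73, and 1 of them passed the threshold of the study. Pmf1 was at 15.01 and 22.9 normalized CPM in ctrl and 33.2, 40.5 and 36.7 in cko NSCs (log2 fold change 0.96, adjusted p = 0.0152 in edgeR). Nsl1 was at 10.3 and 12.9 normalized CPM in ctrl and 17.2, 21.8 and 22.4 in cko NSCs (log2 fold change 0.82). Dsn1 was at 27.4 and 26.9 normalized CPM in ctrl and 37.4, 44.4 and 44.3 in cko NSCs (log2 fold change 0.63). In each of them the lowest cko library lay above both ctrl libraries, and each lost its call without cko library 2 or cko library 3. Mis12 (ENSMUSG00000040599, chromosome 11, 71019611 to 71027371, plus strand) had the smallest change, with 30.5 and 32.6 normalized CPM in ctrl and 38.5, 41.4 and 40.8 in cko NSCs and a change of 0.35 ± 0.088 (SE) on the log2 scale with an edgeR adjusted p of 0.0352. Its call was lost without ctrl library 1 or any 1 of the cko libraries (adjusted p of up to 0.157), with log2 fold changes from 0.29 to 0.37 in those fits. The ratio of Ndc80 to Mis12 was 0.484 and 0.516 in the ctrl libraries and 0.891, 1.05 and 1.04 in the cko libraries.

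The pair of genes of the KNL1 complex differed in size of change, and 1 of the 2 was called. Knl1 (ENSMUSG00000027326, chromosome 2, 119047119 to 119105501, plus strand), the scaffold on which the BUB proteins dock, had 30.8 and 31.4 normalized CPM in ctrl and 67.8, 81.3 and 74.1 in cko NSCs, from 31.1 ± 0.453 (SD, n = 2) to 74.4 ± 6.76 (SD, n = 3) (log2 fold change 1.26, standard error 0.100). Its adjusted p of 0.00106 in edgeR was the smallest of the 48. Zwint (ENSMUSG00000019923, chromosome 10, 72654845 to 72674964, plus strand), which binds KNL1 and helps to hold the RZZ complex, was the most abundant member per length, and had 239 and 230.2 normalized CPM in ctrl and 271, 270.5 and 254 in cko NSCs. Its libraries did not overlap, but the log2 fold change of 0.18 (SE 0.073) was not called (adjusted p = 0.142 in edgeR). The ratio of Knl1 to Zwint was 0.129 and 0.137 in the ctrl libraries and 0.250, 0.301 and 0.291 in the cko libraries.

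In the RZZ complex and its partner Spindly, which bring dynein and the checkpoint proteins MAD1 and MAD2 to unattached kinetochores, 4 of 4 genes rose. Kntc1, which encodes the ROD subunit, was at 27.1 and 35.9 normalized CPM in ctrl and 58.6, 77.5 and 74.5 in cko NSCs (log2 fold change 1.16 ± 0.16, SE, with an edgeR adjusted p of 0.00531). Zw10, whose product also acts in membrane traffic between the endoplasmic reticulum and the Golgi, was at 32.7 and 31.5 normalized CPM in ctrl and 41.6, 45.05 and 47.1 in cko NSCs (log2 fold change 0.47, adjusted p = 0.0151). Cko libraries were above ctrl libraries in both, by a wider margin in Kntc1. Zwilch had 25.3 and 28.03 normalized CPM in ctrl and 34.5, 47.7 and 46.3 in cko NSCs (log2 fold change 0.69, adjusted p = 0.0241 in edgeR). Spdl1, the Spindly gene, had 7.29 and 10.1 normalized CPM in ctrl and 15.4, 19.4 and 18.7 in cko NSCs (log2 fold change 1.04, adjusted p = 0.0118). The calls of Zw10, Zwilch and Spdl1, and not that of Kntc1, were lost without cko library 2 or cko library 3. The ratio of Kntc1 to Zw10 was 0.828 and 1.14 in the ctrl and 1.41, 1.72 and 1.58 in the cko libraries, a wider spread between the ctrl libraries than in the other ratios. The corona proteins followed. Cenpe, a kinesin that carries chromosomes to the spindle equator, had 63.7 and 63.4 normalized CPM in ctrl and 128, 166 and 168 in cko NSCs (log2 fold change 1.28, adjusted p = 0.00200 in edgeR). Cenpf, a large coiled-coil protein of the corona, had 110.0 and 98.3 normalized CPM in ctrl and 208, 242 and 249 in cko NSCs (log2 fold change 1.16, adjusted p = 0.00148). Both were called higher in each alternative that was run.

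All 6 spindle checkpoint genes rose, with a median log2 fold change of 1.06. Bub1 (ENSMUSG00000027379, chromosome 2, 127801122 to 127831865, minus strand), a kinase that docks on KNL1 and marks the inner centromere, was at 26.2 and 31.1 normalized CPM in ctrl and 52.3, 65.8 and 66.8 in cko NSCs, from 28.7 ± 3.50 (SD, n = 2) to 61.6 ± 8.14 (SD, n = 3) (log2 fold change 1.11 ± 0.14, SE, with an edgeR adjusted p of 0.00352). Bub1b, which encodes the inhibitor BUBR1, Ttk, which encodes the kinase MPS1, and Mad2l1, the MAD2 gene, had log2 fold changes of 1.09, 1.08 and 1.04. These 4 genes kept their calls in each alternative that was run. Bub3, the adaptor shared by BUB1 and BUBR1, was at 85.6 and 96.2 normalized CPM in ctrl and 121, 138 and 132 in cko NSCs, a smaller log2 fold change of 0.52 (SE 0.091, adjusted p = 0.0112 in edgeR). Mad1l1, the MAD1 gene, was at 17.9 and 21.2 normalized CPM in ctrl and 28.3, 34.5 and 29.98 in cko NSCs (log2 fold change 0.66, adjusted p = 0.0169). Both lost the call without cko library 2 or without cko library 3 (adjusted p of up to 0.0852 in edgeR). The ratio of Bub1 to Bub3 was 0.306 and 0.324 in the ctrl libraries and 0.433, 0.478 and 0.507 in the cko libraries, and that of Bub1b to Bub3 was 0.531 and 0.519 and 0.708, 0.803 and 0.826. The Mad2l1 to Mad1l1 ratio was 1.85 and 1.59 in ctrl and 2.10, 2.16 and 2.43 in cko libraries.

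These 8 ratios were chosen after the values of the genes were seen. Each sets a gene with a larger change over a gene with a smaller change, so a higher mean ratio in cko NSCs was built in. In each of them the cko libraries lay above both ctrl libraries. The log2 change ran from 0.38 for Mad2l1 to Mad1l1 up to 1.08 for Knl1 to Zwint. They are given as a description. An exact permutation test of 2 against 3 libraries gave p = 0.2 for each ratio. This is the smallest value it can give, so the test cannot decide.

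**Figure D3:**
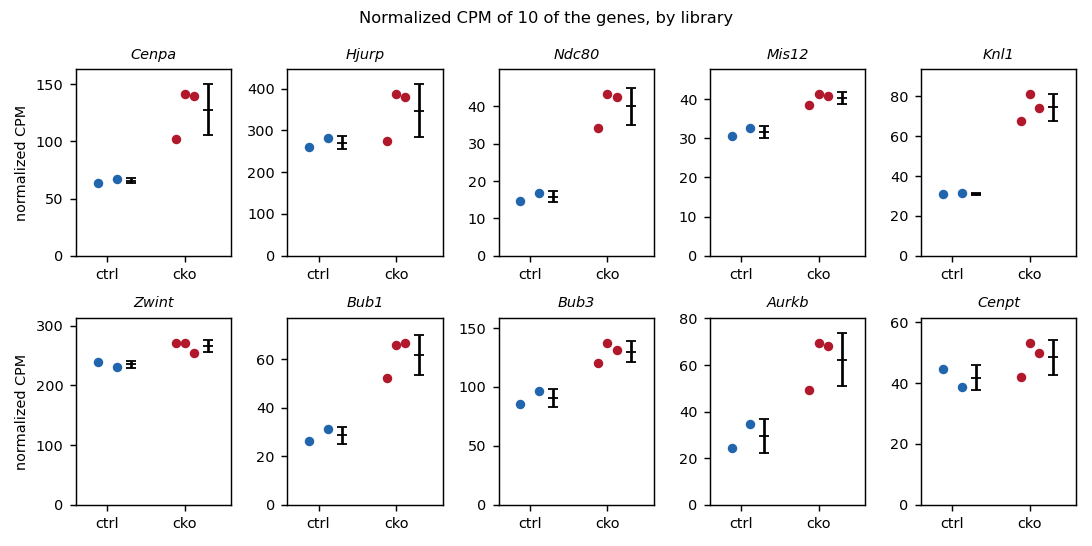
Normalized CPM of 10 of the genes in the 2 ctrl (blue) and 3 cko (red) libraries, with the mean and SD of each group beside the points. Cenpa, Ndc80, Knl1, Bub1 and Aurkb are well apart between genotypes; Hjurp and Cenpt overlap; Mis12, Zwint and Bub3 are apart by a smaller margin.

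The SKA complex, which holds kinetochores on shrinking microtubule ends, rose in 3 of 3 genes. Ska1 was at 7.81 and 7.14 normalized CPM in ctrl and 10.1, 17.7 and 15.7 in cko NSCs (log2 fold change 0.96 ± 0.24, SE, with an edgeR adjusted p of 0.0379). Ska2 was at 44.2 and 48.8 normalized CPM in ctrl and 63.6, 77.2 and 71.9 in cko NSCs (log2 fold change 0.61, adjusted p = 0.0103). Ska3 was at 15.2 and 16.3 normalized CPM in ctrl and 22.2, 31.9 and 30.3 in cko NSCs (log2 fold change 0.84). All cko libraries were above the ctrl libraries in the 3 genes, although Ska1 was spread widely over the cko libraries and lost its call without ctrl library 3, cko library 2 or cko library 3 (adjusted p of up to 0.140). The shugoshins guard the cohesin that holds sister centromeres together. Sgo1 was at 12.3 and 12.5 normalized CPM in ctrl and 25.8, 29.8 and 30.2 in cko NSCs (log2 fold change 1.21, adjusted p = 0.00195 in edgeR). Sgo2a was at 10.6 and 11.7 normalized CPM in ctrl and 17.7, 20.7 and 21.99 in cko NSCs (log2 fold change 0.85, adjusted p = 0.00933), with 35.0% of its exonic bases shared with Kctd18 on the opposite strand. Both genes kept the genotypes apart. The calls of Ska2, Ska3 and Sgo2a were lost without cko library 2 or cko library 3.

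All 4 genes of the chromosomal passenger complex rose and passed the threshold of the study, with log2 fold changes from 0.98 to 1.12. Aurkb (ENSMUSG00000020897, chromosome 11, 69045647 to 69051664, plus strand), the Aurora B kinase gene, was at 24.3 and 34.8 normalized CPM in ctrl and 49.3, 69.6 and 68.1 in cko NSCs, from 29.6 ± 7.39 (SD, n = 2) to 62.3 ± 11.3 (SD, n = 3) (log2 fold change 1.08 ± 0.20, SE, with an edgeR adjusted p of 0.0130). Its ctrl libraries were the most unequal of the complex, and the call was lost without cko library 2 or cko library 3 (adjusted p of up to 0.0670). Cdca8, the gene of Borealin, was at 38.8 and 45.4 normalized CPM in ctrl and 74.9, 99.4 and 99.7 in cko NSCs (log2 fold change 1.12, adjusted p = 0.00424). Birc5, the Survivin gene, and Incenp, the scaffold, had log2 fold changes of 1.10 and 0.98. Incenp was at 58.9 and 66.8 normalized CPM in ctrl and 98.6, 135 and 139 in cko NSCs. In all 4 genes the lowest cko library was above the highest ctrl library.

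Levels were compared between genes as normalized CPM per kilobase of the longest APPRIS principal transcript. In ctrl NSCs the highest levels were those of Zwint (87.8 ± 2.45, SD, n = 2), Hjurp (55.5 ± 2.98), Cenpa (44.8 ± 1.59), Bub3 (40.98 ± 3.38), Cdca8 (25.9 ± 2.84) and Birc5 (24.2 ± 3.88). The mean ± SD ranges of Cenpa and Bub3 overlapped, as did those of Cdca8 and Birc5, while the other neighbours in this order were apart. In cko NSCs the order was Zwint (99.2 ± 3.56, SD, n = 3), Cenpa (87.2 ± 15.3), Hjurp (71.2 ± 12.9), Bub3 (58.6 ± 3.89), Cdca8 (56.2 ± 8.73) and Birc5 (51.8 ± 6.76). Here the mean ± SD ranges of all neighbours in the order overlapped. The lowest levels in ctrl NSCs were those of Cenpu (1.04 ± 0.165) and Cenpp (1.72 ± 0.588). In cko NSCs they were those of Cenpu (2.19 ± 0.705) and Cenpo (2.94 ± 0.322), and Cenpp (4.49 ± 0.696) was at rank 44. Ndc80 moved from rank 30 (7.16 ± 0.656) to rank 21 of 48 (18.2 ± 2.27), and Mis12 from rank 18 (10.5 ± 0.497) to rank 29 (13.4 ± 0.512). In both genotypes their mean ± SD ranges overlapped those of their neighbours in the order, so these ranks are approximate.

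Other genes of the same pathway, from a list of 39 that were no members, were called higher less often. Of them 17 (43.6%) were higher and 2 lower at an adjusted p under 0.05 in edgeR (median log2 fold change 0.27). Of the 48 genes 43 were higher and 0 lower, with a median of 1.00. Over all tested genes 7.86% were called higher and 8.57% lower, so the 2 lower genes are no result about the list. The count of 17 fell to 6 without cko library 2, to 6 without cko library 3 and to 11 without cko library 1, and the count of 2 fell to 1 without cko library 2 or 3, where Clip1 was no longer called. Knstrn, whose product helps to separate chromatids, was at 62.7 and 63.1 normalized CPM in ctrl and 141, 178 and 169.7 in cko NSCs (log2 fold change 1.37, adjusted p = 0.00107 in edgeR). Cdc20, the activator of the anaphase-promoting complex that the checkpoint holds back, was at 50.9 and 62.5 normalized CPM in ctrl and 117, 151.02 and 139.8 in cko NSCs (log2 fold change 1.26). Kif2c, a kinesin that depolymerizes microtubules at wrong attachments, was at 34.6 and 40.3 normalized CPM in ctrl and 84.1, 96.1 and 87.1 in cko NSCs (log2 fold change 1.25). Plk1, a mitotic kinase, rose by 1.22 on the log2 scale. Lower were Ppp2r5a, a regulatory subunit of the phosphatase PP2A, with 102 and 121 normalized CPM in ctrl and 73.4, 67.5 and 63.6 in cko NSCs (log2 fold change -0.71, adjusted p = 0.00541 in edgeR), and Clip1, a protein of microtubule plus ends, with 69.9 and 67.8 normalized CPM in ctrl and 54.8, 49.8 and 55.1 in cko NSCs (log2 fold change -0.37, adjusted p = 0.0226). The other B56 subunit genes of PP2A on the list, Ppp2r5b, Ppp2r5c, Ppp2r5d and Ppp2r5e, were not called (log2 fold changes from -0.074 to 0.27). Not called either were Dync1h1 (0.034), the heavy chain of cytoplasmic dynein, and Dctn1 (0.035), a subunit of its activator dynactin.

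**Figure D4:**
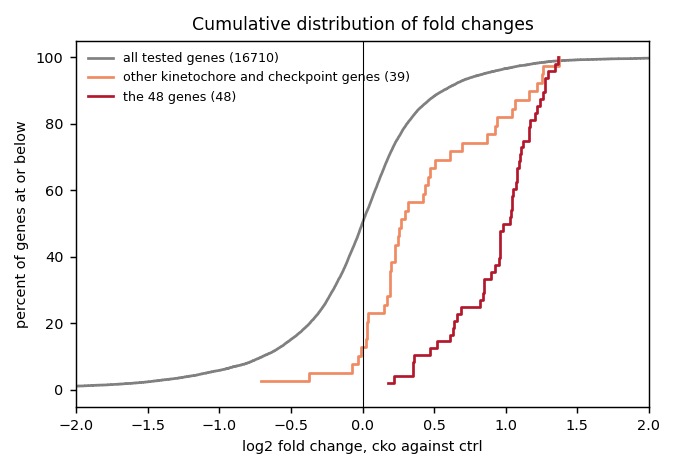
Cumulative share of genes by log2 fold change, cko against ctrl, for the 48 genes, the 39 other kinetochore and checkpoint genes and all 16710 tested genes. The curve of the 48 genes starts above zero and has its median at 1.00, against 0.27 for the other genes of the pathway and -0.0026 for all tested genes.

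For comparison, the lists of cell cycle genes used by Seurat to score cells were read out with the members left out. Of 43 G2/M genes, 38 were higher (adjusted p under 0.05 in edgeR), with a median log2 fold change of 1.06. Of 42 S-phase genes, 29 were higher, with a median of 0.77. The level of the 48 genes in cko NSCs, summed over the list, was 172% of that in ctrl NSCs, against 175% for the G2/M list and 168% for the S-phase list. No test was made of a difference between these lists.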

How the data were processed

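The authors used FastQC and NGSQC on the reads and HISAT2 for alignment, with mm10 as the genome, and the deposited values are raw counts for each Ensembl gene. The submitters' processing notes name GRCm39 instead. The counting tool, the annotation and the use of strand are not given in the sources used here, so reads of the 14 members with exonic bases shared with an opposite-strand gene are uncertain. Names and positions came from GENCODE M21 (GRCm38), which matched 31836 of 32493 gene IDs. In R 4.3.3, edgeR 4.0.16 was used for filterByExpr, TMM and the quasi-likelihood test with Benjamini-Hochberg adjustment over 16710 genes, for 3 cko against 2 ctrl libraries. Alternatives were DESeq2 1.42.0, other size factors and filters, leaving out each library, the replicate block and all 6 columns. Cell cycle lists came from Seurat 5.3.0, promoters from RefSeq (GRCm38.p6), and figures were drawn with matplotlib 3.10.9. The fit was tested on simulated data. Members, role groups, other lists and motifs were chosen with earlier results of these data known. Values per library are given for the members with the largest and smallest change in each role group and for Cenpa, Bub1 and Aurkb. They are also given for members whose call changes when a library is left out. Those of Cenpm, Cenph and Cenpo were added outside this rule. Of the other pathway genes, the 4 called with the largest change and all called lower are named. Other pathway genes named beside them were chosen after their values were seen. Sgo2b and seed matches of miR-151-5p were not analysed here. The marker lists are not reported here in full.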

Additional observations from a re-analysis of the deposited data

How the results depend on the processing

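Over 12 alternatives, the member values kept direction and call in 520 cases, lost the call in 46, gained it in 10 and reversed in none. The 43 members called higher ranged from 23 (without cko library 2 or 3) to 43 when 1 library was left out, and came to 41 with the replicate block and 46 with all 6 columns. Members called lower stayed at 0 in each alternative. Those past the threshold of the study (30) ranged from 23 to 36 when 1 library was left out, and the median log2 fold change of the members from 0.91 to 1.13. Of the other pathway genes, the 17 called higher ranged from 6 to 22 when 1 library was left out and came to 28 with all 6 columns; the 2 called lower ranged from 1 to 2, and 1 was called with the replicate block (Clip1 was not past it). Same-numbered libraries deviated together only slightly (Pearson's r = 0.113 between the 1-minus-3 differences of the genotypes across 16710 genes, which are not independent replicates), and only 2 pairs exist, so the numbers are not taken as pairs. With the block, 41 members were called, Mis12 and Ska1 no longer. Over all tested genes the calls fell from 1314 higher and 1432 lower to 317 and 416 without cko library 2 and 336 and 457 without cko library 3, and rose to 2797 and 2860 with all 6 columns. Fits that leave 1 ctrl library assume that it varies like the cko libraries. Fits with all 6 columns count the averaged ctrl column as a library, and the gained calls of Cenpo and Zwint came only from these. The alternatives also share libraries, so the 520, 46 and 10 cases are not independent. At this depth, genes of few reads such as Cenpp and Cenpu limit what can be called. The causes of these shifts were not tested, beyond the fewer or averaged libraries in each fit.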
